A study of Homo sapiens with 6 samples.

Results

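The replication-dependent histone genes encode the canonical linker and core histones and stand in clusters on chromosomes 6 and 1. They were taken from the deposited count table by their gene names (H1-1 to H1-6 and the numbered H2AC, H2BC, H3C and H4C genes), with no use of measured values. The rule found 57 of 21850 listed genes: 5 of H1, 15 of H2A, 16 of H2B, 10 of H3 and 11 of H4. Of these, 48 lie on chromosome 6 between positions 26020451 and 27893891, and 9 on chromosome 1 between 149782689 and 149887965 (GRCh38.p14). RNA was sequenced from MM.1S cells, a human multiple myeloma line, 3 days after infection with a hairpin against PRKCN (labelled PRKCN knockdown, shPRKCN, 3 libraries) or with a scramble hairpin (labelled WT, shNT, 3 libraries). PRKCN is the older symbol of PRKD3, the gene of a protein kinase D family member. Both groups are bulk cultures of 1 line that received a hairpin virus, so the shNT cells are infected controls rather than untouched cells. Nothing in the labels says whether the 3 libraries of a group came from separate cultures, so p-values measure the spread between these libraries, which may be technical.

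Canonical histones are made in bulk during S phase, when new DNA has to be packed into nucleosomes. Pairs of H2A and H2B and of H3 and H4 form the nucleosome core, and H1 binds the linker DNA between nucleosomes. Unlike other mRNAs, most of their transcripts end in a stem-loop that binds SLBP and carry no poly(A) tail, and they are destroyed when DNA synthesis stops. Some members can also give a polyadenylated transcript with a longer 3′ end, which persists outside S phase and in cells that have left the cycle. In bulk RNA, fewer cells in S phase and less histone mRNA per S-phase cell cannot be told apart.

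The library totals ran from 35625564 to 37730003 counts. PRKD3 had 44913, 47712 and 45531 counts in shNT 1 to 3 and 19979, 18253 and 19998 in shPRKCN 1 to 3. Its level was lower in each knockdown library, by -1.29 ± 0.0343 on the log2 scale (SE). All 8 plasma cell markers were listed, and their summed CPM ran from 3862 to 3927 in shNT and from 2527 to 2620 in shPRKCN. IRF4, XBP1, TNFRSF17 and SLAMF7 were called lower among them and none was called higher. SDC1 was higher within the fold limit, by 0.18 on the log2 scale, and CD38 did not pass the test (-0.01). Of the T cell markers CD3E ranged over 379 to 419 counts in the shNT libraries and over 1021 to 1150 in the knockdown, while CD3D had at most 1 count in any library. HBB, the only erythroid marker listed, had 122, 80 and 145 counts in shNT and 37, 41 and 35 in shPRKCN, and was called lower by -1.65 on the log2 scale. The part of these changes in the histone values was not tested.

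The histone transcripts were scarce in these libraries. The 57 members together had 2213, 2403 and 2219 counts in shNT 1 to 3 and 1718, 1686 and 1825 in shPRKCN 1 to 3. As a share of the library this was 45.1 to 65.0 CPM, taken on the library totals. H2AZ1, the gene of a replacement H2A that is made throughout the cycle and polyadenylated, alone had 9857 to 15815 counts. The library preparation is described only as a standard Illumina protocol on total RNA, so the selection of polyadenylated RNA is neither stated nor excluded. None of the 12 RNAs without a poly(A) tail that were looked up (among them RN7SK, RMRP and TERC) is listed in the table, so the yield of such RNA could not be measured with them.

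The sequence that marks these mRNAs was searched in the GENCODE release 29 transcripts of the 53 members found there. A histone stem-loop of 16 bases was found in 23 of them, in 5 forms. It is shown with 5 bases on each side, and the stem-loop in capitals, for 6 members whose counts are described here.

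H2AC6: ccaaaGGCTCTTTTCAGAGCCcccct
H2BC21: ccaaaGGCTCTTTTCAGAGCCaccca
H2BC4: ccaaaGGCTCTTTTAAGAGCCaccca
H2BC9: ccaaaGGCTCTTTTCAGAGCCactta
H4C5: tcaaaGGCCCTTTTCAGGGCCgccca
H4C8: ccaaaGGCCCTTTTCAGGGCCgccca

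H2AC6, H2BC21 and H2BC9 shared 1 form of the stem-loop, which was the most frequent and was found in 11 members. H4C5 and H4C8 shared another, which was found in 4 members. The longest annotated H2AC6 transcript went on for 1128 bases beyond the stem-loop, that of H2BC21 for 1729 and that of H2BC9 for 1640. Many annotated members consist of the coding sequence alone, so a missing stem-loop says nothing about the mRNA.

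Promoters of histone genes carry a TATA box, CCAAT boxes and, in H2A and H2B genes, an octamer that binds the POU factor OCT1 (POU2F1). RefSeq promoters (250 bases before to 50 bases after the start, GRCh38.p14) were at hand for 53 members, and H2AC12, H3C12, H4C1 and H4C3 had none. The promoters of H2BC21 and H2BC12, H2B members with opposite changes, and of H2AC6, whose divergent partner H2BC4 changed oppositely, are printed with the TATA box (TATAAA), the CCAAT box (CCAAT) and the octamer (ATTTGCAT) of either strand in capitals.

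H2BC21, chr1:149886633-149886932, minus strand: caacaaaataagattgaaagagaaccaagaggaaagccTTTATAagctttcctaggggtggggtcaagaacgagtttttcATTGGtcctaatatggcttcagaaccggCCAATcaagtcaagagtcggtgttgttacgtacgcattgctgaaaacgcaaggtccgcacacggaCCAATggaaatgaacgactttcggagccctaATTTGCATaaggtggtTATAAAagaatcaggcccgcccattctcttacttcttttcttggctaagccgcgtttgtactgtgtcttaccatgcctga
H2BC12, chr6:27146809-27147108, minus strand: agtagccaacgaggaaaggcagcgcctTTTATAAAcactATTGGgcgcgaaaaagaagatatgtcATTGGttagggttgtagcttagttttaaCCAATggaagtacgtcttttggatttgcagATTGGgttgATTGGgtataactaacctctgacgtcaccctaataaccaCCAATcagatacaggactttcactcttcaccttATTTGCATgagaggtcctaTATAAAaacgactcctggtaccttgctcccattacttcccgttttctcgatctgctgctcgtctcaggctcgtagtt
H2AC6, chr6:26123922-26124221, plus strand: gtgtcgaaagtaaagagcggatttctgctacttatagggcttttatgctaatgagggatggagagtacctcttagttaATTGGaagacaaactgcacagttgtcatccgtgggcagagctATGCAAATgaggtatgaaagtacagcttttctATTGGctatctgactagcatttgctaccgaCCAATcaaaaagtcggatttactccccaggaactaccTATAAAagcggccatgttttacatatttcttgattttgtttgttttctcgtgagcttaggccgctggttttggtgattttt

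The octamer lay 46 bases before the start and on the same strand in both H2B promoters. A TATA box followed it in both, 30 bases before the start of H2BC21 and 27 before that of H2BC12. The H2AC6 promoter, shared with the divergent H2BC4, held the octamer on the opposite strand, 130 bases before the H2AC6 start. The letters ATTTGCAT were found in 45.3% of member promoters and in 1.8% of all 27305 promoters, with both strands searched. They were in 10 of 14 H2A, 13 of 16 H2B and 1 of 9 H3 promoters, and in 0 of 5 H1 and 0 of 9 H4 promoters. CCAAT was found in 84.9% of member promoters (35.7% of all), in each H1, H2A, H2B and H3 promoter but in 1 of 9 of H4. TATAAA was in 64.2% of member promoters (12% of all). Matches describe the letters only, and H2BC21 and H2BC12 did not differ in the presence of any of the 3 motifs.

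Of the 57 members, 24 passed the filter on low counts and were tested in the fit of all 13971 genes. A member was called at an adjusted p under 0.05 with a log2 fold change beyond 0.58. After PRKCN knockdown 12 members were called lower and 3 were called higher, and 9 were not called. Of all genes tested 10.6% were called lower and 6.15% higher. The median log2 fold change was -0.87 over the 24 members tested and 0.0012 over all genes tested. The member counts of a group did not overlap those of the other, on the CPM scale, for 21 members lower in shPRKCN and for 4 higher, out of 57. Over all listed genes such separation was found for 21.2% lower and 19.8% higher. H4C14 was among the 21 with only 2, 1 and 1 counts in shNT and 0 in each shPRKCN library. The 24 tested members are the better counted ones, each averaging 10 counts or more, and are not the whole family. H1-3 and H2AC14 reached the level of the filter in shNT libraries only, and H2BC11 in shPRKCN libraries only. These members were tested because of the group in which they are high, and the counts and median above include them.

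**Figure D1:**
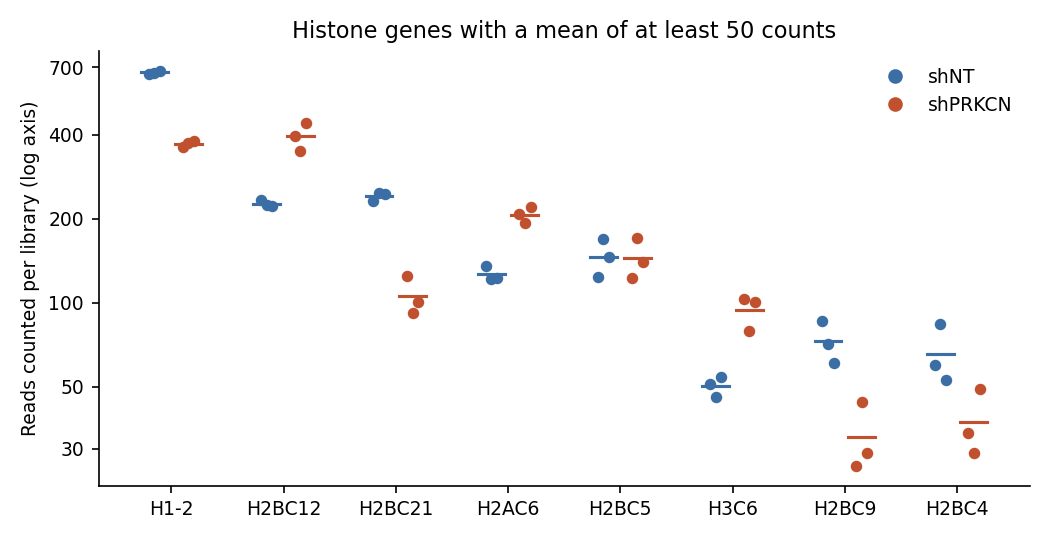
Counts per library (vertical log axis) of the 8 histone genes that averaged 50 counts or more over the 6 libraries, with shNT libraries in blue, shPRKCN libraries in red and the mean of each group as a line. H1-2, H2BC21, H2BC9 and H2BC4 were lower in shPRKCN, H2BC12, H2AC6 and H3C6 were higher, and the H2BC5 libraries of both groups overlapped.

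All 3 tested H1 genes were called lower, but H1-3 entered the test through its shNT counts. H1-2, the gene of a linker histone that is abundant in many cell types, had 663, 666 and 681 counts in shNT 1 to 3 and 362, 373 and 382 in shPRKCN 1 to 3. The groups were far apart, with 18.4 ± 0.362 CPM in shNT and 9.93 ± 0.203 CPM in shPRKCN (SD, n = 3 each). The log2 fold change was -0.89 ± 0.0860 (SE, edgeR adjusted p = 3.2e-14). H1-4 had 64, 68 and 61 counts in shNT and 21, 16 and 30 in shPRKCN, with no overlap and a log2 fold change of -1.56. H1-3 went from 22, 27 and 29 counts in shNT to 0, 5 and 4 in shPRKCN, a log2 fold change of -3.10 ± 0.58 (SE, edgeR adjusted p = 5.2e-06). This was the largest fold among the tested members and rests on few counts. H1-5, with 0, 21 and 7 counts in shNT and 1, 5 and 1 in shPRKCN, and H1-6, with counts in shPRKCN 1 only, were not tested. H1 without H1-2 held 86, 116 and 97 counts in shNT and 26, 26 and 35 in shPRKCN.

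The H2B genes moved in both directions. H2BC21, an H2B gene of the chromosome 1 cluster, had 231, 248 and 245 counts in shNT 1 to 3 and 125, 92 and 101 in shPRKCN 1 to 3. Every shPRKCN library was under every shNT library, and the log2 fold change was -1.22 ± 0.151 (SE, edgeR adjusted p = 1.3e-10). H2BC12 had 234, 225 and 222 counts in shNT and 398, 349 and 443 in shPRKCN. Here every knockdown library was above every control library, with a log2 fold change of 0.76 ± 0.113 (SE, edgeR adjusted p = 2.7e-08). At similar counts in shNT, these H2B genes thus ended apart, at 2.83 ± 0.460 CPM for H2BC21 and 10.6 ± 1.14 CPM for H2BC12 in shPRKCN (SD, n = 3).

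H2BC9 had 86, 71 and 61 counts in shNT and 26, 44 and 29 in shPRKCN, with no overlap and a log2 fold change of -1.18 ± 0.280 (SE, edgeR adjusted p = 0.00025). H2BC4 had 60, 84 and 53 counts in shNT and 34, 29 and 49 in shPRKCN. Its groups lay close to each other, the log2 fold change was -0.85 ± 0.281 (SE, edgeR adjusted p = 0.0079), and the call was lost without shNT 2 (adjusted p = 0.096) or without shPRKCN 2 (adjusted p = 0.0504). H2BC5 did not pass the test, with 124, 169 and 146 counts in shNT and 123, 171 and 140 in shPRKCN. Its groups overlapped throughout, with a log2 fold change of -0.05 ± 0.164 (SE).

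Of the less counted H2B genes, H2BC18 (28, 38 and 42 counts in shNT and 20, 15 and 24 in shPRKCN) and H2BC7 (11, 32 and 29 counts against 7, 7 and 14) were called lower. The H2BC18 call was lost without shNT 2, shNT 3, shPRKCN 1 or shPRKCN 2 (adjusted p from 0.071 to 0.13), as was that of H2BC7 (0.057 to 0.090). H2BC8 missed the threshold, with 58, 63 and 45 counts in shNT, 42, 24 and 47 in shPRKCN and an adjusted p of 0.081. H2BC15 (adjusted p = 0.80) and H2BC11 (adjusted p = 0.14) were not called either. H2BC11 went the other way in all its libraries, with 6, 7 and 9 counts in shNT and 13, 15 and 15 in shPRKCN.

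Among the H2A genes, H2AC6 had 135, 122 and 123 counts in shNT 1 to 3 and 208, 193 and 220 in shPRKCN 1 to 3. All its knockdown libraries were above the control libraries, with a log2 fold change of 0.67 ± 0.15 (SE, edgeR adjusted p = 0.00011). H2AC8 did the opposite, with 54, 57 and 58 counts in shNT and 19, 18 and 23 in shPRKCN, a log2 fold change of -1.53 ± 0.329 (SE, edgeR adjusted p = 6.1e-05). H2AC14 had 18, 23 and 14 counts in shNT and 3, 6 and 4 in shPRKCN, and was called lower with a log2 fold change of -2.09. H2AC20 was also called lower, although its counts of 44, 64 and 28 in shNT and 26, 31 and 18 in shPRKCN overlapped. Its call was lost without shNT 1, shNT 2 or shPRKCN 3 (adjusted p from 0.051 to 0.26). H2AC17 (27, 13 and 34 counts in shNT and 23, 7 and 11 in shPRKCN), H2AC13 and H2AC11 were not called.

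H3 had only 2 tested members. H3C6, whose gene model of 2700 bases is the longest of the family, had 51, 46 and 54 counts in shNT and 103, 79 and 101 in shPRKCN. The groups did not overlap, and the log2 fold change was 0.87 ± 0.234 (SE, edgeR adjusted p = 0.0012). H3C10 had 22, 18 and 12 counts in shNT and 10, 16 and 5 in shPRKCN and was not called (adjusted p = 0.18). The other 8 H3 genes were too low to test. H3C3, with 12, 15 and 8 counts in shNT and 0, 2 and 3 in shPRKCN, and H3C8, with 7, 15 and 10 against 5, 4 and 3, were among the separated ones.

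H4 also had 2 tested members. H4C5 had 30, 46 and 45 counts in shNT and 18, 6 and 12 in shPRKCN, well separated, with a log2 fold change of -1.77 ± 0.405 (SE, edgeR adjusted p = 0.00014). H4C8, the most counted H4 gene, had 30, 46 and 26 counts in shNT and 39, 29 and 25 in shPRKCN. Its groups overlapped and its adjusted p was 0.71. H4C4 was below the filter with 6, 6 and 10 counts in shNT and 0, 1 and 0 in shPRKCN.

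**Figure D2:**
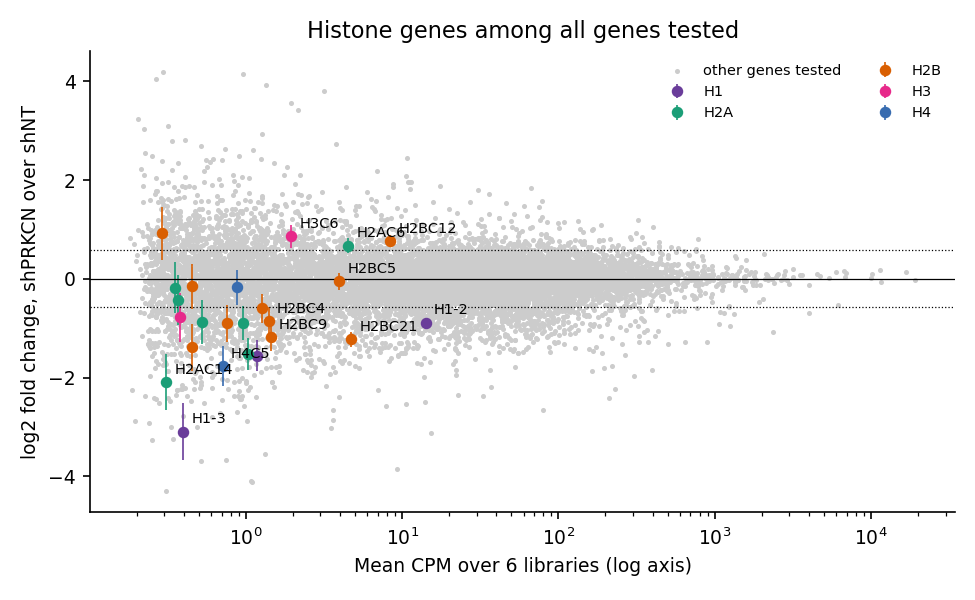
Log2 fold change of shPRKCN over shNT (vertical axis) against the mean CPM over the 6 libraries (horizontal log axis) for all genes tested in grey and for the 24 tested histone genes in colours by class, with bars of 1 SE and dotted lines at the fold limit of 0.58. Most histone genes lie below 0 among the lowly counted genes, and H2BC12, H2AC6, H3C6 and the uncalled H2BC11 stand above the upper limit.

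Below the filter were 33 members, 7 of them with at most 3 counts in each library, too few for a direction. When no filter was applied, 5 further members were called lower (H2BC14, H3C3, H2AC4, H2BC3 and H4C4) and 0 further members higher, which gave 17 lower and 3 higher. The share of all genes called without the filter is not given here, so these totals have no background beside them. The means of 47 of the 57 members were lower in shPRKCN and those of 10 were higher. These counts include the 7 members at the floor, and no such share was taken over all listed genes. H2AC15, with 2, 4 and 1 counts in shNT and 12, 12 and 2 in shPRKCN, was among the 10 and was not called without the filter.

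Summed over the class, H1 and H4 were lower in shPRKCN, while the size of the difference depended on the most counted member in each class. H1 held 749, 782 and 778 counts in shNT 1 to 3 and 388, 399 and 417 in shPRKCN 1 to 3, and the normalised sum in shPRKCN was 50.7% of that in shNT. H4 held 101, 114 and 112 counts in shNT and 70, 61 and 49 in shPRKCN, 53.7% of shNT. In H1 and H4 the groups did not overlap, and their sums were the lowest relative to shNT of the 5 classes.

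The sums of H2A were 345, 361 and 322 in shNT and 328, 332 and 319 in shPRKCN, and overlapped after normalisation. H2B held 896, 1013 and 902 counts in shNT and 805, 789 and 905 in shPRKCN, which came to 86.5% of shNT after normalisation. The normalised H2B groups did not overlap, but shPRKCN 3 lay just under shNT 3. With scaling to library totals shPRKCN 3 lay above shNT 3, so this separation depends on the scaling. H3 held 122, 133 and 105 counts in shNT and 127, 105 and 135 in shPRKCN, at 99.0% of shNT with overlap. Its log2 ratio of -0.01 turned to 0.0064 with scaling to library totals, so H3 has no direction as a class. No test was made of a class sum.

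**Figure D3:**
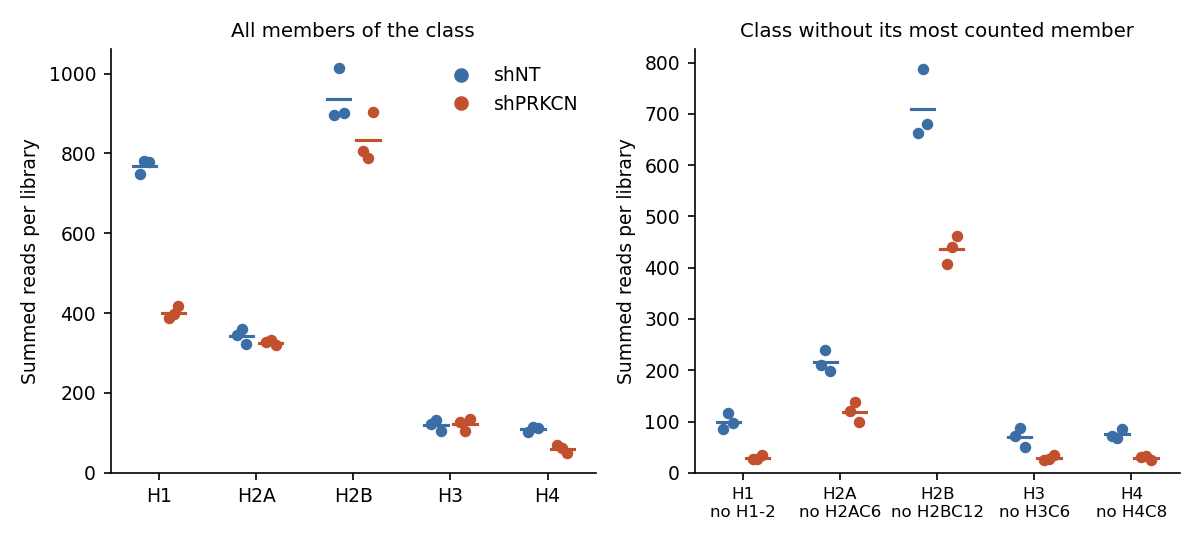
Summed counts per library (vertical axes, from 0) of the 5 histone classes on the left and of each class without its most counted member on the right, with shNT in blue, shPRKCN in red and a line at each mean. The H2A, H2B and H3 sums overlap on the left, and on the right the shPRKCN libraries lie under the shNT libraries in all 5 classes. The member left out of H2A, H2B and H3 is the one called higher.

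Without its most counted member, each class was lower in each shPRKCN library than in any shNT library. H2A without H2AC6 had 210, 239 and 199 counts in shNT and 120, 139 and 99 in shPRKCN, and H2B without H2BC12 had 662, 788 and 680 against 407, 440 and 462. H3 without H3C6 had 71, 87 and 51 counts in shNT and 24, 26 and 34 in shPRKCN. H4 without H4C8 had 71, 68 and 86 against 31, 32 and 24. The most counted member accordingly took a larger share of its class in shPRKCN. H2AC6 rose from 37.0% to 63.4% of H2A counts, H2BC12 from 24.2% to 47.6% of H2B and H3C6 from 41.9% to 77.1% of H3. In H1 and H4 the shares of H1-2 (87.1% to 92.8%) and H4C8 (31.2% to 51.7%) were also higher. These members were left out by their counts in these libraries, so the sums without them are a description. In H2A, H2B and H3 the member left out was also the only one called higher. Its removal favours a lower remainder, and its rising share follows from the same values.

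Members known to give polyadenylated transcripts as well were listed from textbook knowledge as H1-2, H2AC6, H2BC4, H2BC5, H2BC12 and H2BC21. They held 63.0% to 66.2% of the member counts in shNT and 71.6% to 73.2% in shPRKCN. Within this list H2AC6 and H2BC12 were called higher, H1-2, H2BC21 and H2BC4 lower, and H2BC5 was not called. The summed log2 ratio was -0.26 for these 6 and -0.78 for the other 51, whose counts were 766, 889 and 749 in shNT and 468, 479 and 490 in shPRKCN. H3C6 was the only called-higher member among the 51. The list does not follow the annotated transcripts. Outside it, those of H2BC9, H4C5, H2BC8 and H4C8 ran 1640, 1022, 1059 and 1655 bases beyond the stem-loop. H2BC9 and H4C5 were called lower, and H2BC8 and H4C8 were not called. Those of the listed H2BC4 and H2BC5 ran on for 116 and 39 bases. Both sums were chosen after the data had been seen and were not tested.

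The length of the gene model behind a count also set some members apart. It was obtained for each gene from the deposited counts and FPKM. Of the 52 core histone members, 44 had models of 387 to 542 bases, close to the size of a short stem-loop mRNA, and 8 had models of 887 to 2700 bases. The long ones are H2BC12, H3C4, H2BC18, H2BC5, H2BC21, H2BC4, H4C15 and H3C6. Among them H2BC12 and H3C6 were called higher, H2BC21, H2BC4 and H2BC18 lower, H2BC5 was not called, and H3C4 and H4C15 were not tested. H2AC6, the remaining member called higher, had a model of 519 bases.

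Per length, H1-2 was the most abundant member in shNT at 24.9 ± 0.455 FPKM (SD, n = 3), and no library of another member reached it. H2BC12 followed at 6.97 ± 0.396 FPKM and H2AC6 at 6.65 ± 0.568 FPKM, and these did not differ beyond their spread. H2BC9 was next at 4.29 FPKM, with its lowest library just above the highest of H2BC8. H2BC8 at 3.08, H2BC5 at 3.01, H2AC8 at 2.96 and H2BC21 at 2.95 FPKM overlapped with each other. In shPRKCN the level of H1-2 was 13.7 ± 0.265 FPKM, that of H2BC12 was 12 ± 1.4 FPKM and that of H2AC6 was 10.7 ± 0.697 FPKM.

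Near-identical copies can exchange reads in this family. Of the 53 members in GENCODE release 29, 20 shared no 50-base stretch with a transcript of another gene and 11 shared over 60% of theirs. H1-2, H1-3, H1-4, H2AC8, H2BC9, H2BC8, H4C5 and H4C8 shared none, H2AC6 0.42%, H3C6 1.29% and H2BC21 8.11%. Of other members called lower, H2BC7 shared 0.087%, H2BC4 6.63%, H2BC18 25.7% and H2AC20 30.5%. H2BC12 shared 74.1% of its stretches, most of them with H2BFS, although only its coding sequence is annotated there. H2AC14 shared 83.7% with H2AC13, so the split of these is uncertain. Not all sharing is between copies of 1 histone gene. H2AC17 shared its 86.3% with transcripts annotated to H3C12, an H3 gene. H2AC7 (98.0%) and H3C4 (100%), an H2A and an H3 gene, both shared theirs with AL031777.3. These members are among the 11. The models of H2BC12 and H4C9 overlap on opposite strands, and H4C9 had 3 to 8 counts.

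H2A and H2B genes often stand head to head and share 1 promoter region. There were 10 such pairs, with starts 194 to 248 bases apart. Both genes were tested in 4 pairs. H2AC20 and H2BC21 were both called lower, H2AC8 was called lower beside the uncalled H2BC8, and neither H2AC11 nor H2BC11 was called.

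H2AC6 and H2BC4 were called in opposite directions from starts 246 bases apart. The H2AC6 count was 2.25, 1.45 and 2.32 times the H2BC4 count in shNT 1 to 3 and 6.12, 6.66 and 4.49 times in shPRKCN 1 to 3. Each knockdown library was above each control library, which gave p = 0.10 (exact two-sided permutation test, the smallest that 3 against 3 libraries allow) and 0.267 after Benjamini-Hochberg adjustment over 8 pairs. H2BC12 rose while its partner H2AC12 had 8, 7 and 8 counts in shNT and 1, 5 and 2 in shPRKCN, too few to test. The ratio of that pair separated the groups as well, as did that of H2AC8 and H2BC8 (for each, exact permutation p = 0.10 and 0.267 after adjustment).

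The factors that make and remove histone mRNA were compared next. All 30 genes of the list were tested, with 7 called lower and 0 called higher, beside 10.6% and 6.15% of all genes. By the adjusted p alone, with no limit on the fold, 15 were lower and 6 higher, beside 27.8% and 26.5% of all genes. The median log2 fold change was -0.10, against 0.0012 over all genes. LSM11, a subunit of the U7 snRNP that cuts the histone 3′ end, had 510, 575 and 516 counts in shNT and 182, 193 and 205 in shPRKCN. Its knockdown libraries held about the same low level, and the log2 fold change was -1.5 ± 0.11 (SE, edgeR adjusted p = 4.4e-20). LSM10, the partner of LSM11 in this particle, went the other way by 0.38 on the log2 scale, within the fold limit.

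Upstream of transcription, CCNE2, a cyclin that drives entry into S phase, had 190, 191 and 173 counts in shNT and 71, 83 and 99 in shPRKCN, with a log2 fold change of -1.17. CDK2, its kinase, was called lower by -0.79 and E2F1 by -0.72. POU2F1, the octamer factor, was called lower by -0.60, close to the fold limit. NPAT, the coactivator of histone genes that CDK2 phosphorylates, changed by -0.38 and CASP8AP2, its partner in the histone locus body, by -0.43, and neither passed the fold limit. CCNE1, the other and more counted cyclin E gene, changed by only -0.17 and was not called. HINFP (0.23), CRAMP1 (0.18) and YY1 (0.11) of the same list were higher, within the fold limit.

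SLBP, which binds the stem-loop, had 4002, 4073 and 4408 counts in shNT and 3279, 3057 and 3094 in shPRKCN. The groups did not overlap, but the log2 fold change of -0.44 ± 0.0421 (SE, edgeR adjusted p = 1.4e-14) was within the fold limit. Of the genes of histone mRNA decay, ERI1, the exonuclease that trims the stem-loop, was called lower by -0.83 and TUT7, a uridyltransferase, by -0.67.

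**Figure D4:**
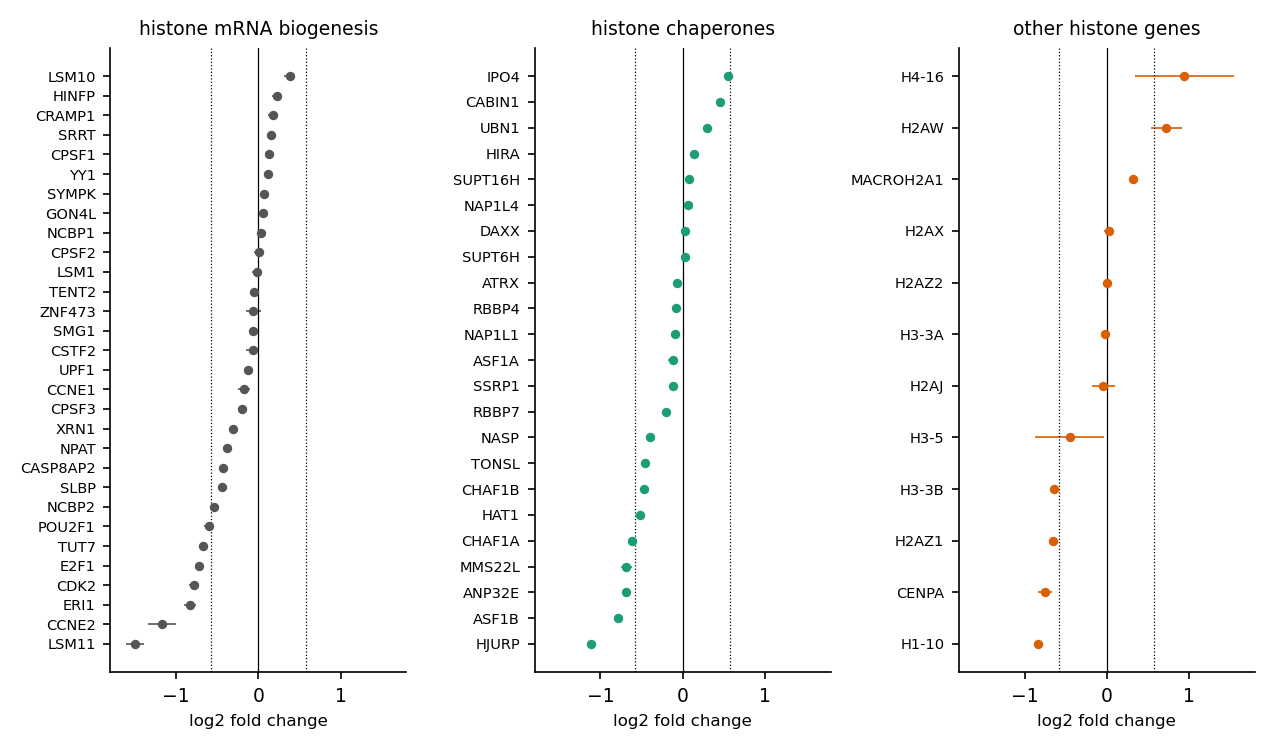
Log2 fold change of shPRKCN over shNT with bars of 1 SE (horizontal axes) for the tested genes of histone mRNA biogenesis, of histone chaperones and of the other histone genes, ordered by value, with dotted lines at the fold limit of 0.58. LSM11, CCNE2 and HJURP lie farthest to the left, and most genes of the 3 lists lie between the dotted lines.

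Of 23 chaperone and import genes, all tested, 5 were called lower and 0 higher (10.6% and 6.15% of all genes), with a median log2 fold change of -0.12. HJURP, the chaperone of CENP-A, had 2974, 3070 and 3096 counts in shNT and 1485, 1356 and 1484 in shPRKCN (log2 fold change -1.12). ASF1B, which hands H3 and H4 to the replication machinery, was called lower by -0.78 and ANP32E, a chaperone of H2A.Z, by -0.69. MMS22L (-0.68) and CHAF1A, the large subunit of CAF-1 (-0.62), were the others. IPO4, which imports H3 and H4, and CABIN1, a subunit of the HIRA complex, were higher by 0.55 and 0.46, within the fold limit.

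The 16 other histone genes listed comprise replacement variants and a few genes outside the clusters, and 12 were tested. Of them 4 were called lower and 1 higher, again beside 10.6% and 6.15% of all genes, with a median of -0.03. H1-10, a linker histone variant, had 14417, 16628 and 17964 counts in shNT and 9485, 9727 and 8921 in shPRKCN (log2 fold change -0.84). CENPA, the centromeric H3, was called lower by -0.75, H2AZ1 by -0.66 and H3-3B by -0.64. H3-3A, which encodes the same H3.3 protein as H3-3B, had a log2 fold change of -0.03 and did not pass the test (adjusted p = 0.54), nor did H2AZ2 (adjusted p = 0.97). H2AW, which RefSeq names H2AC25, was the gene called higher, with 91, 82 and 79 counts in shNT and 183, 130 and 114 in shPRKCN. Its log2 fold change of 0.72 became 0.50 without shPRKCN 1, under the fold limit.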

How the data were processed

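Total RNA of 6 MM.1S libraries (3 shNT, 3 shPRKCN) was sequenced, and samples were grouped by the treatment in the labels. The authors deposited raw counts and FPKM per gene. The submitters' notes name FastQC, HISAT2, StringTie and GRCh38.p14, without versions. The counting program and strandedness are not given in the sources used here, so genes that overlap on opposite strands cannot be told apart. The deposited FPKM follow from the counts with 1 whole-number length per gene (largest relative deviation 4.52e-06).

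Counts were tested with edgeR 4.0.16 (R 4.3.3), with TMM, filterByExpr and the quasi-likelihood test with Benjamini-Hochberg adjustment over 13971 genes. Calls followed the limits of the study, 0.05 for the adjusted p and 0.58 for the size of the log2 fold change. The study, which used DESeq2, reported more genes in each direction at these limits. The shares of all genes given here therefore hold for the present fit only. CPM use TMM-normalised library sizes. Up to 3 counts in a library were taken as the floor. Other settings tried were RLE factors, upper-quartile factors, library totals, DESeq2 1.42.0, no filter, at least 10 counts in every library, a replicate block, each library left out, no fold limit, class sums without their most counted member, and limma 3.58.1 on log2(FPKM + 1), log2(FPKM + 0.1) and log2(FPKM + 1) with a minimum of 1 FPKM. The steps were tested on simulated data.

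Members with a mean of at least 50 counts were named in full, and the others within counts and ranges. From the other lists, PRKD3, SLBP, NPAT, CASP8AP2 and up to 4 called genes per list with the largest change were named. POU2F1, E2F1, TUT7, LSM10, CHAF1A, IPO4, CABIN1, H3-3A, H3-3B, H2AZ2 and members under 50 counts with values were added after their values were seen. So were CCNE1, HINFP, CRAMP1 and YY1. Members and lists were chosen with earlier results of these data known. Promoters are from RefSeq, and stem-loops and shared stretches of 50 bases from GENCODE release 29. Python 3.11.15 was used. Libraries of a group differed beyond sampling noise (chi-square per degree of freedom 3.38 to 4.80), so none was deposited again.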

Additional observations from a re-analysis of the deposited data

How the results depend on the processing

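Counts of genes under the other settings were as follows. The 859 genes called higher became 315 with limma on log2(FPKM + 1), 310 with a minimum of 1 FPKM and 3700 without a fold limit, and the 1475 called lower became 648, 635 and 3877. The 12 members called lower became 6 with limma and a minimum of 1 FPKM, where fewer members are tested and the added 1 shrinks the fold of low genes, and ranged from 8 to 17 under the count settings. The 7 biogenesis genes became 3, 3 and 21 under the same 3 settings, and the 5 chaperone genes 3, 3 and 17. The log2 ratio of the class sums without the most counted member was -1.82 for H1, -0.89 for H2A, -0.74 for H2B, -1.36 for H3 and -1.41 for H4. In H2A, H2B and H3 that member was the one called higher. The H3 sum turned to 0.0064 with library totals. Leaving out each library in turn gave 3 to 4 members higher and 9 to 14 lower, with an H3 sum of -0.12 to 0.079. Of the members called, 8 lower and 3 higher kept their calls each time, and H2BC4, H2AC20, H2BC18 and H2BC7 did not. H2AC20 and H2BC18 were also lost with DESeq2, which called 14 lower and 3 higher. The share of all genes called by DESeq2 is not given beside these. H2BC5, which was not called, ranged from -0.20 to 0.063 and turned positive without shNT 2 or without shPRKCN 1 (0.050). H3C6 fell to 0.36 with limma on log2(FPKM + 1). With the replicate number as a block, 3 members were higher and 12 lower. Same-numbered libraries shared only the number, with a correlation of deviations from -0.042 to 0.0038. Few counts limit most members: a gene at the floor of 3 counts gives no direction, and 33 of 57 members could not be tested.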

Other observations

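The chromosome 6 region from the lowest to the highest member position (26020451 to 27893891) also holds 25 other listed genes, of which 15 were tested. Of these 2 were called lower (13.3%) and 0 higher, beside 10.6% and 6.15% of all genes. The median log2 fold change was -0.23, against 0.0012 over all genes tested. BTN2A2, a butyrophilin, had 4746, 4913 and 5154 counts in shNT and 2122, 1985 and 2108 in shPRKCN, a log2 fold change of -1.29. PRSS16, a thymus serine protease, had 337, 371 and 400 counts in shNT and 226, 205 and 172 in shPRKCN, a log2 fold change of -0.91. The chromosome 1 region held no other listed gene.

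RefSeq gives 69 symbols that match the name rule, and 12 of these are not listed by that symbol in the count table. H2AC25, H2BC26 and H4C16 are listed under the older names H2AW, H2BU1 and H4-16. H4-16 had 6, 5 and 5 counts in shNT and 10, 11 and 11 in shPRKCN, and was not called (edgeR adjusted p = 0.19).

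The letters TTTCCCGC and TTTGGCGC, forms of the E2F site, were in 0 of the 53 member promoters, and in 1.66% and 0.659% of all promoters of that length.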
